A study of Mus musculus with 11 samples.

Results

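Hydroxysteroid dehydrogenases of the Hsd3b and Hsd17b families were examined in mouse Leydig tumor cells (MLTCs) after knockdown of *Mamld1*. The genes were taken by family name and comprised *Hsd3b1*, *Hsd3b2*, *Hsd3b6*, *Hsd3b7*, *Hsd17b3*, *Hsd17b4*, *Hsd17b7*, *Hsd17b10*, *Hsd17b11*, and *Hsd17b12*. They are a part of these families, and further members, such as *Hsd3b4*, were placed in a list of other hydroxysteroid dehydrogenases. These 10 genes were measured by 14 of the 41174 probes on the array. Of the 14 probes, 13 were among the 24250 probes that could be tested, and those 13 were well above background on all 11 arrays. The remaining probe, the dimmest of the 3 *Hsd3b2* probes, was above background on only 2 of the 11 arrays and was not tested.

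MLTCs were the line MLTC-1, a cultured mouse Leydig cell tumor, so that all arrays represent 1 cell line. Cells received non-targeting control RNA (4611G; 4 arrays, called non-targeted MLTCs), siRNA1 against *Mamld1* (4 arrays), or siRNA2 against *Mamld1* (3 arrays), in each case at 20 nM with Lipofectamine RNAiMAX, and total RNA was taken 48 hours later. The study's methods add a short exposure to hCG before harvest, which the sample labels do not name. The labels number the replicates but do not say whether they were separate cultures, so the p-values measure only the spread between these samples.

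Hydroxysteroid dehydrogenases move hydrogen between a steroid hydroxyl group and NAD or NADP, and so switch steroids between their hydroxyl and keto forms. In Leydig cells an Hsd3b enzyme turns pregnenolone into progesterone, and Hsd17b3 turns androstenedione into testosterone. Most of the other Hsd17b enzymes are better known for work outside the androgen pathway, including cholesterol synthesis, the elongation of fatty acids, peroxisomal and mitochondrial fat oxidation, and the surface of lipid droplets.

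The signals were scaled to the 75th percentile of each array, which ranged from 469.7 to 582 intensity units in non-targeted MLTCs, from 601 to 774 in siRNA1-transfected MLTCs, and from 488 to 579 in siRNA2-transfected MLTCs. No spot was saturated. *Mamld1*, the siRNA target, fell by 0.93 on the log2 scale with siRNA1 (SE 0.20, adjusted p = 0.00571) and by 0.77 with siRNA2 (SE 0.22, adjusted p = 0.0309). Its probe was dim, with mean signals of 28.8, 19.1, and 17.9 units in the 3 groups, and the siRNA2 call was lost without any 1 of 4 arrays (control 3 or 4, siRNA2 1 or 3; log2 differences of -0.84 to -0.58, adjusted p of 0.0501 to 0.117). With normexp background correction, which uses the local background of each spot, the *Mamld1* differences turned to 0.65 and 0.44 and did not pass. With the same correction after extreme local backgrounds were replaced, they were -0.40 with siRNA1 (adjusted p = 0.00637) and -0.19 with siRNA2 (adjusted p = 0.257). All 9 Leydig cell markers were above background on every array, but they include *Hsd3b1*, *Hsd3b6*, and *Hsd17b3* of the examined genes. Markers of Sertoli, adrenal, macrophage, and germ cells numbered 14 on the array. Of these, 5 were above background on every array (*Amh*, *Dhh*, *Mc2r*, *Cd14*, and *Sycp3*) and 3 on none (*Sox9*, *Wt1*, and *Adgre1*). The signals of *Hsd17b3* were 10.1 to 21.8 units, and those of *Sycp3*, a germ cell marker, 13.9 to 31.2. The background mark alone therefore does not separate these cell types. Because each array is a bulk sample, fewer cells of a type and less RNA per cell cannot be told apart.

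*Hsd17b7*, an enzyme of cholesterol synthesis, was lower with both siRNAs, and *Hsd17b12*, an enzyme of fatty acid elongation, was lower with siRNA2. *Hsd17b10* was lower with siRNA1, and smaller decreases were found for 1 *Hsd3b2* probe with both siRNAs and for *Hsd3b7* with siRNA2. None of the 13 tested probes of these 10 genes passed as higher with either siRNA. A probe passed where its limma p, adjusted over all 24250 tested probes, did not exceed 0.05. With siRNA1, 4 of the 13 probes passed and all 4 were lower, beside 27.0% of all tested probes that passed in either direction, 15.2% that were lower, and 11.8% that were higher. With siRNA2, 5 of the 13 probes passed and all 5 were lower, beside 18.4% of all tested probes in either direction, 10.7% lower, and 7.70% higher. A fold change of at least 2 in addition was met by 0 probes with siRNA1, beside 2.99% of all probes, and by 1 probe (*Hsd17b12*) with siRNA2, beside 2.25%.

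The log2 differences of the 13 probes ranged from -0.91 to 0.12 with siRNA1 (median -0.20) and from -1.07 to 0.18 with siRNA2 (median -0.23). Over all tested probes, the medians were -0.048 and -0.0082. Every siRNA1 array lay below every control array for 5 of the 13 probes, beside 16.4% of all tested probes. Every siRNA2 array lay below every control array for 6 of the 13 probes, beside 15.7% of all tested probes. No tested probe of these genes had all arrays of either siRNA above the control arrays. Among all tested probes, 12.7% (siRNA1) and 12.4% (siRNA2) did. The 2 siRNA groups share the control arrays, so that their differences from control are not independent of each other.

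**Figure D1:**
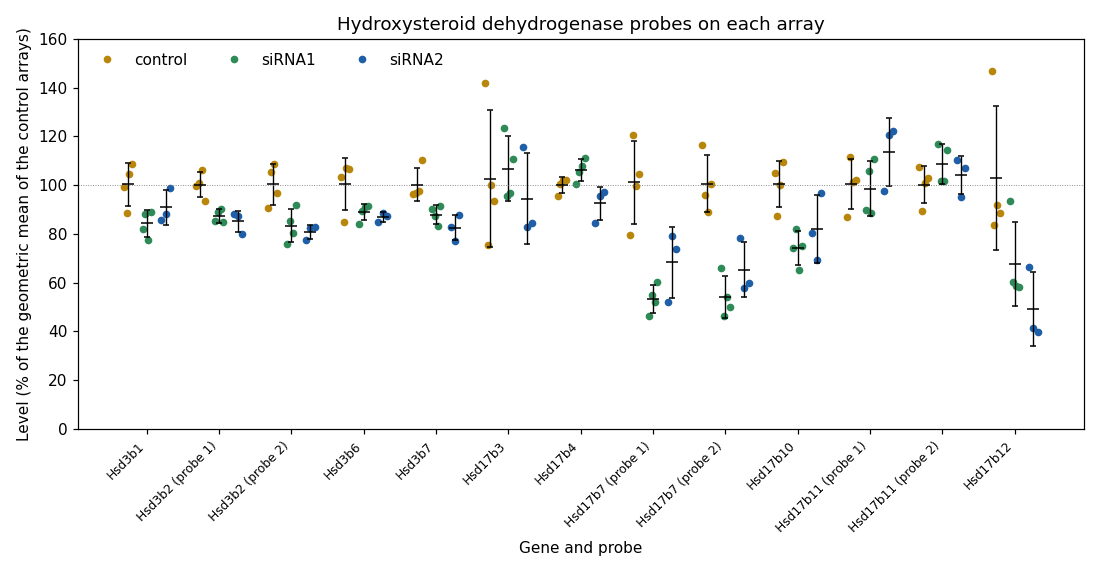
Level of each tested probe on each array, as a percentage of the control level, the geometric mean of 4 arrays (vertical axis), by gene and probe (horizontal axis); points are arrays, and bars are the mean ± SD of 4 control, 4 siRNA1, and 3 siRNA2 arrays. The siRNA1 arrays of both *Hsd17b7* probes lie between 46.1% and 66.0%, and the siRNA2 arrays of *Hsd17b12* between 39.8% and 66.4%, below all of their control arrays.

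The Hsd3b enzymes carry out the step from pregnenolone to progesterone and the matching steps of the later intermediates. *Hsd3b1* is the form of steroid-making cells, *Hsd3b6* is also found in Leydig cells, and the 3 genes *Hsd3b1*, *Hsd3b2*, and *Hsd3b6* lie on chromosome 3 in a cluster of near-identical genes. The sequences of the probes were not used here, and cross-hybridization between these genes was not tested, so a value of 1 of these genes may hold signal from another. In the following, each level is a percentage of the control level, which is the geometric mean over the 4 control arrays for the same probe, and levels of different probes are not compared.

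*Hsd3b1* stood at 99.4%, 88.3%, 105%, and 109% on the control arrays, at 82.1%, 88.1%, 77.6%, and 89.1% on the siRNA1 arrays, and at 85.5%, 88.0%, and 99.0% on the siRNA2 arrays. Both siRNA groups overlapped with the controls, through control array 2. The siRNA1 mean was 84.2% ± 5.38 (SD, n = 4), a log2 difference of -0.25 (SE 0.09), which did not pass the test (adjusted p = 0.0655; two-sided exact permutation p = 0.0571). For siRNA2, the mean was 90.8% ± 7.16 (SD, n = 3), with a log2 difference of -0.14 (SE 0.10, adjusted p = 0.387). In order of level, siRNA1 was lowest and control highest, and no neighbors in this order differed beyond their spread. With the slide as a block, the siRNA1 difference of *Hsd3b1* was -0.27 and passed (adjusted p = 0.0203), and without control array 2 it was -0.31 and passed (adjusted p = 0.03). This siRNA1 difference passed in 4 of 24 tested alternatives, and lay between -0.31 and -0.10 in those other than normexp.

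The brightest *Hsd3b2* probe stood at 99.6%, 101%, 106%, and 93.7% on the control arrays, at 85.2%, 89.0%, 90.4%, and 84.7% on the siRNA1 arrays, and at 87.9%, 87.3%, and 80.1% on the siRNA2 arrays. All siRNA arrays of this probe lay below all control arrays. Its log2 differences were -0.20 with siRNA1 (SE 0.07, adjusted p = 0.0678) and -0.23 with siRNA2 (SE 0.08, adjusted p = 0.0617), short of the threshold. With the slide as a block both *Hsd3b2* differences passed, at -0.21 (adjusted p = 0.021) and -0.23 (adjusted p = 0.0227). Each passed in 4 of 24 tested alternatives. In those other than normexp, they lay between -0.23 and -0.14 with siRNA1 and between -0.27 and -0.19 with siRNA2.

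The second *Hsd3b2* probe, of lower signal, stood at 90.4%, 105%, 109%, and 96.7% on the control arrays, at 75.7%, 85.4%, 80.4%, and 91.7% on the siRNA1 arrays, and at 77.3%, 82.2%, and 82.8% on the siRNA2 arrays. One siRNA1 array overlapped with the controls and no siRNA2 array did. This probe fell by 0.27 on the log2 scale with siRNA1 (SE 0.09, adjusted p = 0.045) and by 0.31 with siRNA2 (SE 0.10, adjusted p = 0.0453). The siRNA1 call was lost without any 1 of 9 arrays (all but control 1 and siRNA1 4; adjusted p of 0.0519 to 0.12), and the siRNA2 call without any 1 of 8 arrays (all but control 1, siRNA1 1, and siRNA1 4; adjusted p of 0.0606 to 0.127), while with normexp background correction the differences turned to 0.40 and 0.23 and did not pass. The third *Hsd3b2* probe had signals of 1.5 to 9.4 units and no tested difference.

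*Hsd3b6* stood at 103%, 84.8%, 107%, and 106% on the control arrays, at 84.2%, 89.2%, 91.0%, and 91.3% on the siRNA1 arrays, and at 84.8%, 88.6%, and 87.4% on the siRNA2 arrays. Control array 2 lay among the siRNA arrays, and the other control arrays lay above all of them. The log2 differences of *Hsd3b6* were -0.17 (SE 0.09, adjusted p = 0.18) and -0.20 (SE 0.09, adjusted p = 0.178). Without control array 2 they were -0.25 (adjusted p = 0.0294) and -0.28 (adjusted p = 0.0322), both past the threshold. Each passed in only this 1 of 24 tested alternatives. In those other than normexp, they lay between -0.25 and -0.11 with siRNA1 and between -0.28 and -0.15 with siRNA2.

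*Hsd3b7* acts on sterols in bile acid and oxysterol synthesis rather than on sex steroids, and its gene lies on chromosome 7, outside the cluster. It stood at 96.3%, 96.7%, 97.4%, and 110% on the control arrays, at 90.1%, 87.2%, 83.0%, and 91.4% on the siRNA1 arrays, and at 82.7%, 77.2%, and 87.8% on the siRNA2 arrays. All siRNA arrays lay below all control arrays. *Hsd3b7* fell by 0.28 on the log2 scale with siRNA2 (SE 0.09, adjusted p = 0.0428), and its difference with siRNA1 was -0.19 (SE 0.08, adjusted p = 0.105). The siRNA2 call of *Hsd3b7* was lost without any 1 of 10 arrays (all but siRNA2 3; adjusted p of 0.0531 to 0.174) and with quantile normalization (adjusted p = 0.0671) or median scaling (adjusted p = 0.171). Of the other genes of bile acid and oxysterol synthesis, 3 of 10 were tested, with *Cyp39a1* lower with siRNA1 (log2 difference -0.32, adjusted p = 0.0415; lost without control array 1, 2, or 4, siRNA1 array 2, 3, or 4, or siRNA2 array 2) and *Cyp27a1* lower with siRNA2 (log2 difference -0.73, adjusted p = 0.000732). Over all tested probes, 15.2% were lower with siRNA1 and 10.7% with siRNA2.

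Within the 3 slides, each of which held arrays of all 3 groups, the 5 tested Hsd3b probes were below control in every comparison, with log2 differences of -0.39 to -0.076 for siRNA1 and of -0.40 to -0.13 for siRNA2. Of all 13 tested probes, 9 were below control on all 3 slides with siRNA1, beside 37.9% of all tested probes, and 10 with siRNA2, beside 30.0%. These directions are relative to the 75th percentile, which was higher in siRNA1-transfected MLTCs. Without scaling, the mean log2 signals of the 5 Hsd3b probes were above control by 0.069 to 0.17 with siRNA1 and below control with siRNA2 (-0.22 to -0.053). Both *Hsd17b7* probes (-0.58 and -0.56 with siRNA1), *Hsd17b12*, and *Hsd17b10* stayed below control with both siRNAs. With siRNA1, the unscaled difference of *Hsd17b12* was -0.26 and that of *Hsd17b10* -0.10, against -0.59 and -0.44 after scaling.

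**Figure D2:**
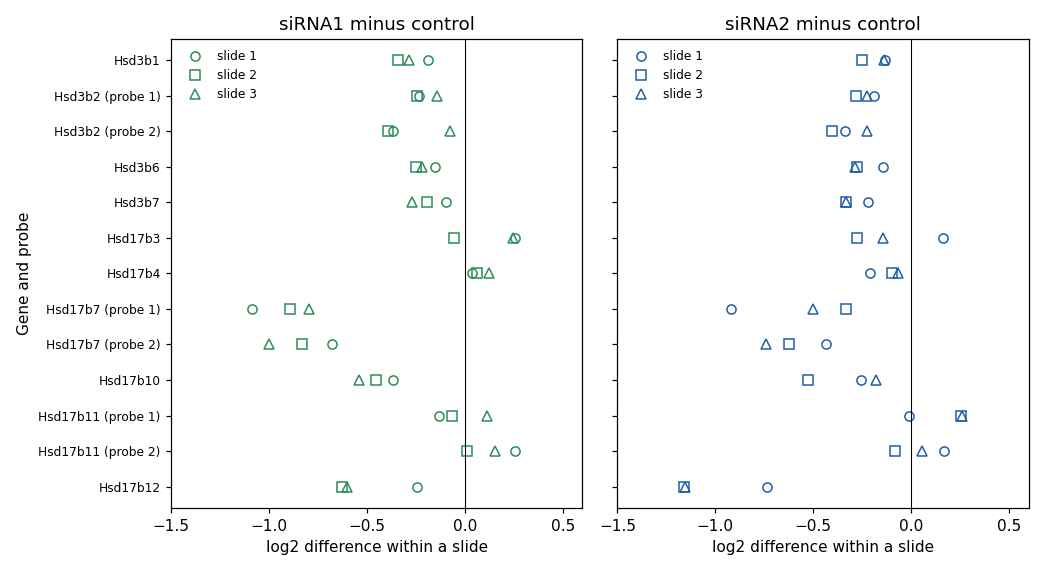
Log2 difference of each siRNA from the control arrays of the same slide (horizontal axis) for each gene and probe (vertical axis), with 1 symbol per slide; left, siRNA1, and right, siRNA2. The Hsd3b probes lie below 0 on all 3 slides, both *Hsd17b7* probes between -1.09 and -0.33, and *Hsd17b12* between -1.16 and -0.25.

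*Hsd17b3*, the testis enzyme that makes testosterone from androstenedione, had a very low signal, with mean signals of 15.2, 19.8, and 14.8 units in the 3 groups. Its levels were 142%, 75.4%, 100%, and 93.5% on the control arrays, 124%, 95.5%, 96.7%, and 111% on the siRNA1 arrays, and 116%, 82.7%, and 84.6% on the siRNA2 arrays. The groups overlapped throughout. The log2 difference of *Hsd17b3* was 0.085 with siRNA1 (95% confidence interval -0.32 to 0.49, adjusted p = 0.777) and -0.10 with siRNA2 (95% confidence interval -0.54 to 0.34, adjusted p = 0.805).

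Among 16 other genes of the steroid pathway, its electron donors, and its regulators, all were tested. With siRNA1, 4 were lower and 2 higher (median log2 difference -0.10), and with siRNA2, 3 were lower and 2 higher (median -0.051). Over all tested probes, 15.2% were lower and 11.8% higher with siRNA1, and 10.7% were lower and 7.70% higher with siRNA2. *Cyp17a1*, the enzyme between the Hsd3b and Hsd17b3 steps, fell by 0.92 on the log2 scale with siRNA1 and by 0.48 with siRNA2 (adjusted p = 0.000216 and 0.0237). *Fdx1*, the electron donor of the mitochondrial steroid enzymes, fell by 0.38 and 0.49 (adjusted p = 0.00878 and 0.00465). *Cyb5r3*, which passes electrons from NADH to cytochrome b5, fell by 0.69 with siRNA1 and fell by 1.59 with siRNA2 (adjusted p = 0.000142 and 1.74e-06). *Gata6*, a transcription factor of steroid-making cells, rose by 0.38 and 0.47 (adjusted p = 0.00176 and 0.00106).

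Of 23 other hydroxysteroid dehydrogenases and related reductases, 21 were on the array and 12 were tested. With siRNA1, 3 were lower and 2 higher (median log2 difference -0.052), and with siRNA2, 1 was lower and 2 higher (median 0.038). The shares over all tested probes were 15.2% lower and 11.8% higher with siRNA1, and 10.7% lower and 7.70% higher with siRNA2. *Hsdl1*, named for its likeness to the Hsd17b enzymes, rose by 0.87 on the log2 scale with siRNA1 and by 0.81 with siRNA2 (adjusted p = 6.06e-05 and 0.000263). *Akr1c18*, which inactivates progesterone, fell by 1.08 with siRNA2 (adjusted p = 6.99e-05), and its log2 difference with siRNA1 was -0.062 (adjusted p = 0.697). The other genes of this list past the threshold, named after their values were seen, were *H2-Ke6*, *Srd5a3*, and *Akr1c12* (lower with siRNA1), *Akr1c13* (higher with siRNA1), and *Srd5a1* (higher with siRNA2).

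*Hsd17b7* reduces a keto group during the removal of methyl groups from lanosterol, on the way to cholesterol, and can also act on estrone. Its promoter is shown because *Hsd17b7* was the only gene of these 10 with all of its probes lower with both siRNAs, beside those of *Hsd17b12*, with the largest decrease with siRNA2, and *Hsd3b1*, which did not pass. Each stretch is the 250 bases before the start of the gene, from RefSeq (GRCm38.p6), 5′ to 3′ on the minus strand that carries the gene, at chr1:169969206-169969455 for *Hsd17b7*, chr2:94157910-94158159 for *Hsd17b12*, and chr3:98859795-98860044 for *Hsd3b1*. Capitals mark the NF-Y box CCAAT on either strand (ATTGG on the other) and the E-box CACGTG.
Hsd17b7: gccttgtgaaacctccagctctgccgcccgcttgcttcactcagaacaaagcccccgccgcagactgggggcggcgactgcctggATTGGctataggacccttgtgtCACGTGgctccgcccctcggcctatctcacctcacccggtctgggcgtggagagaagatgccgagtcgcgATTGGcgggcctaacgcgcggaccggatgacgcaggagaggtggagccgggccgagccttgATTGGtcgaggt
Hsd17b12: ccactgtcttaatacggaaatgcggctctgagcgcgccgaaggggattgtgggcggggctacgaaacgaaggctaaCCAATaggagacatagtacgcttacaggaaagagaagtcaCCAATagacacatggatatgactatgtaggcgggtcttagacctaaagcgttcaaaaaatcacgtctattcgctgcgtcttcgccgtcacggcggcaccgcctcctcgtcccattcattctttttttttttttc
Hsd3b1: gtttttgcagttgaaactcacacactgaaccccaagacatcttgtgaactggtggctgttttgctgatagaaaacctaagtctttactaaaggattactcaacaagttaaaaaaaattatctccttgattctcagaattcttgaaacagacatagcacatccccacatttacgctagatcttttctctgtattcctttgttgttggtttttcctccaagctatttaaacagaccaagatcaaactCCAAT

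The *Hsd17b7* stretch holds 3 NF-Y boxes, at -165, -73, and -12 from the start, and 1 E-box at -143. The *Hsd17b12* stretch holds 2 NF-Y boxes, at -174 and -134, and the *Hsd3b1* stretch holds 1, at -5. The promoters of 9 of the 10 genes were searched, and that of *Hsd17b4* is not reported here. Of these 9, 5 had an NF-Y box (also *Hsd17b10* and *Hsd17b11*), beside 33.8% of 32851 mouse promoters of the same length. An E-box was found in 1 of the 9, beside 6.02% of all promoters. The letters TCACNCCA (an SREBP site) and CAAGGNCA (an NR5A1 site), searched on both strands, were in none of the 9, beside 3.67% and 5.53% of all promoters. These matches are descriptions of the letters, and the motifs do not overlap each other.

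The brighter *Hsd17b7* probe stood at 79.6%, 121%, 99.6%, and 105% on the control arrays, at 46.1%, 55.0%, 52.1%, and 60.1% on the siRNA1 arrays, and at 51.8%, 79.0%, and 73.9% on the siRNA2 arrays. The second *Hsd17b7* probe stood at 117%, 95.8%, 89.1%, and 100% on the control arrays, at 66.0%, 46.3%, 54.0%, and 50.1% on the siRNA1 arrays, and at 78.1%, 57.8%, and 60.0% on the siRNA2 arrays. For both probes, every siRNA array lay below every control array. Array 1 of each group was the lowest of its group on the brighter probe and the highest of its group on the second probe.

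Mean levels with siRNA1 were 53.3% ± 5.86 and 54.1% ± 8.55 (SD, n = 4) for the brighter and the second *Hsd17b7* probe. These correspond to log2 differences of -0.91 (SE 0.16, adjusted p = 0.00164) and -0.90 (SE 0.14, adjusted p = 0.000727). By exact permutation (two-sided), p was 0.0286 for each, the smallest that 4 arrays against 4 allow. With siRNA2, the means were 68.3% ± 14.4 and 65.3% ± 11.2 (SD, n = 3), and *Hsd17b7* fell by 0.57 (SE 0.17, adjusted p = 0.0395) and 0.63 (SE 0.15, adjusted p = 0.0132) on the log2 scale. The exact permutation p of the siRNA2 differences was 0.0571, the smallest that 4 arrays against 3 allow.

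The siRNA1 call of the brighter *Hsd17b7* probe held in all 24 tested alternatives at the threshold of 0.05, and that of the second probe in all but normexp background correction (adjusted p = 0.0972), while neither met the added 2-fold limit. With siRNA2, the brighter probe lost the call in 13 of 24 alternatives, among them without any 1 of 7 arrays (control 2, 3, or 4, siRNA1 2 or 3, siRNA2 1 or 3; log2 differences of -0.64 to -0.39, adjusted p of 0.0539 to 0.142), and the second probe in 4, among them without siRNA2 array 2 or 3 (log2 differences of -0.55 and -0.57, adjusted p = 0.0639 and 0.0517). In order of level, siRNA1 was lowest and control highest on both *Hsd17b7* probes, and the siRNA groups did not differ from each other beyond their spread (log2 difference -0.34, 95% confidence interval -0.72 to 0.039, and -0.27, 95% confidence interval -0.60 to 0.056; adjusted p = 0.188 and 0.224).

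Of 12 genes for the conversion of farnesyl diphosphate and squalene into cholesterol, 7 were lower and 1 higher with siRNA1 (median log2 difference -0.35), and 7 were lower and none higher with siRNA2 (median -0.38). Of all tested probes, 15.2% and 10.7% were lower, with medians of -0.048 and -0.0082. The genes past the threshold with both siRNAs were *Fdft1*, *Lss*, *Cyp51*, *Tm7sf2*, *Msmo1*, and *Ebp*, all lower. *Tm7sf2*, a sterol reductase that acts just after Cyp51, fell by 0.98 with siRNA1 and by 0.57 with siRNA2 (adjusted p = 3.98e-05 and 0.00322), and *Lss*, which closes the sterol rings, fell by 0.70 and 0.49 (adjusted p = 3.96e-05 and 0.00106). *Cyp51*, which removes the first methyl group of lanosterol, fell by 0.40 and 0.63 (adjusted p = 0.0176 and 0.00326).

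*Msmo1*, whose product works on the same methyl groups as Hsd17b7, fell by 0.34 with siRNA1 and by 0.47 with siRNA2 (adjusted p = 0.014 and 0.00494). *Nsdhl*, the remaining enzyme of that complex, had log2 differences of -0.33 and -0.35 and did not pass (adjusted p = 0.0667 and 0.0883). *Lbr*, the nuclear envelope protein with the same reductase activity as Tm7sf2, was the gene that rose with siRNA1 (log2 difference 0.41, adjusted p = 0.0022), and its difference with siRNA2 was 0.20 (adjusted p = 0.11). With quantile normalization or median scaling, the counts with siRNA1 were 4 lower and 1 higher. With normexp background correction, 1 was lower with siRNA1 and 0 with siRNA2, and without siRNA2 array 2 the siRNA2 count was 4 lower.

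**Figure D3:**
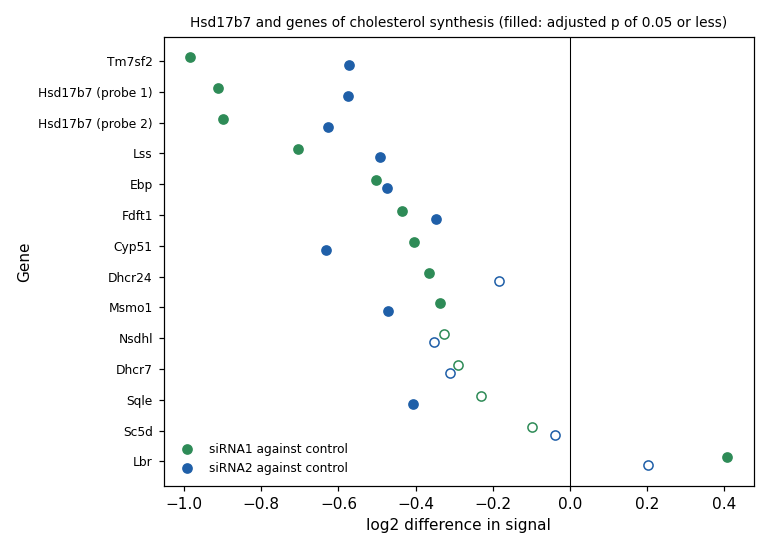
Log2 difference of each siRNA from control (horizontal axis) for both *Hsd17b7* probes and 12 genes of cholesterol synthesis, 1 probe a gene (vertical axis); filled symbols have an adjusted p of 0.05 or less. With siRNA1, *Tm7sf2* is lowest at -0.98 and *Lbr* highest at 0.41.

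*Hsd17b12* carries out the keto reduction in each round of fatty acid elongation and is also called an estrone reductase. It stood at 147%, 83.5%, 92.0%, and 88.7% on the control arrays, at 93.4%, 60.2%, 58.7%, and 58.4% on the siRNA1 arrays, and at 66.4%, 41.2%, and 39.8% on the siRNA2 arrays. All siRNA2 arrays lay below all control arrays, whereas siRNA1 array 1 overlapped with the controls. Array 1 of each group was the highest of its group. The mean with siRNA2 was 49.2% ± 15.0 (SD, n = 3), a 2.09-fold decrease (log2 difference -1.07, SE 0.25, adjusted p = 0.0122, two-sided exact permutation p = 0.0571). With siRNA1, the mean of *Hsd17b12* was 67.7% ± 17.2 (SD, n = 4), a log2 difference of -0.59 (SE 0.23) that did not pass (adjusted p = 0.0803).

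The siRNA2 call of *Hsd17b12* was lost without siRNA2 array 2 (log2 difference -0.96, adjusted p = 0.0558) or 3 (-0.93, adjusted p = 0.0516). It was also lost with normexp background correction (-1.24, adjusted p = 0.296) and with the methods' t-test, adjusted (-1.07, adjusted p = 0.0892). The siRNA1 difference passed without siRNA1 array 1 (-0.76, adjusted p = 0.0328). Within the 3 slides the differences were -0.74, -1.16, and -1.16 with siRNA2, and -0.25, -0.63, and -0.60 with siRNA1. The difference between the siRNAs was 0.47 with siRNA1 above siRNA2 (95% confidence interval -0.076 to 1.02, adjusted p = 0.206), so that, in this fit without a block, only the ends of the order control, siRNA1, siRNA2 passed the test.

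Of 16 genes of fatty acid elongation and desaturation, 14 were tested. With siRNA1, 7 were lower and 1 higher (median log2 difference -0.25), and with siRNA2, 5 were lower and none higher (median -0.22), beside 15.2% and 10.7% of all tested probes that were lower. Without siRNA2 array 1 or 2, 3 and 2 were lower with siRNA2. Those lower with both siRNAs were *Elovl3*, *Hacd2*, *Hacd4*, and *Fads2*. *Elovl3*, an elongase of very long chains, fell by 1.72 with siRNA1 and by 0.65 with siRNA2 (adjusted p = 4.47e-05 and 0.0335). *Hacd4*, of the dehydratase family that acts just after Hsd17b12, fell by 1.60 and 0.51 (adjusted p = 3.81e-06 and 0.012), and *Hacd2* of the same family by 0.28 and 0.60 (adjusted p = 0.0264 and 0.000835). *Fads2*, a desaturase, fell by 0.72 and 0.30 (adjusted p = 4.22e-05 and 0.0196). *Elovl3* and *Hacd4* were dim and were tested through the control and siRNA2 groups, with their highest mean signals in the control group. *Elovl3* was above background on 4 of 4 control, 3 of 4 siRNA1, and 3 of 3 siRNA2 arrays, and *Hacd4* on 4, 1, and 3, so that their sizes with siRNA1 rest in part on signals not well above background. Over the 12 genes above background on all 11 arrays, 5 were lower with siRNA1 and 3 with siRNA2. With normexp background correction, *Elovl3* and *Hacd4* turned upward (log2 differences of 0.43 and 0.57 with siRNA1, 0.38 and 0.46 with siRNA2) and no gene of this list passed.

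*Hsd17b10* is a mitochondrial enzyme of isoleucine breakdown and a subunit of mitochondrial RNase P. It stood at 105%, 87.4%, 99.9%, and 109% on the control arrays, at 74.1%, 81.9%, 65.0%, and 75.2% on the siRNA1 arrays, and at 80.1%, 69.2%, and 96.7% on the siRNA2 arrays. The siRNA1 arrays all lay below the control arrays, and the siRNA2 arrays overlapped with both groups. *Hsd17b10* fell by 0.44 on the log2 scale with siRNA1 (SE 0.12, adjusted p = 0.0189, two-sided exact permutation p = 0.0286), to a mean of 74.0% ± 6.94 (SD, n = 4). Its difference with siRNA2 was -0.30 (SE 0.13, adjusted p = 0.141). The siRNA1 call was lost without control array 4 (log2 difference -0.40, adjusted p = 0.0561) or siRNA1 array 3 (-0.38, adjusted p = 0.0609). It was also lost with normexp background correction (-0.80, adjusted p = 0.198). None of the 9 tested genes of mitochondrial RNase P and isoleucine breakdown passed with siRNA1 (median log2 difference 0.069). Over all tested probes, 27.0% passed with siRNA1 and 18.4% with siRNA2. With siRNA2, *Acadsb* fell by 1.20 (adjusted p = 0.000348) and *Bckdha* rose by 0.50 (adjusted p = 0.0441; lost without control array 1, 2, or 3, siRNA1 array 2 or 3, or siRNA2 array 2 or 3), and the median was -0.055.

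*Hsd17b4* is the multifunctional enzyme of peroxisomal fat oxidation. It stood at 95.4%, 101%, 102%, and 102% on the control arrays, at 101%, 105%, 108%, and 111% on the siRNA1 arrays, and at 84.6%, 95.5%, and 97.3% on the siRNA2 arrays. The siRNA groups overlapped with the controls but not with each other. The log2 difference of *Hsd17b4* was 0.086 with siRNA1 (95% confidence interval -0.079 to 0.25, adjusted p = 0.44) and -0.12 with siRNA2 (95% confidence interval -0.29 to 0.062, adjusted p = 0.39). Between the siRNAs it was 0.20 (SE 0.08), short of the threshold (adjusted p = 0.0981), and past it with the slide as a block (0.20, adjusted p = 0.0427). Of 18 genes of peroxisomal fat oxidation, 16 were tested, with 3 lower and 1 higher with siRNA1 (median log2 difference -0.13) and 1 lower and 2 higher with siRNA2 (median -0.088). The shares over all tested probes were 15.2% lower and 11.8% higher with siRNA1, and 10.7% lower and 7.70% higher with siRNA2. *Amacr*, a racemase of branched fatty acids, fell by 0.25 and 0.59 (adjusted p = 0.0467 and 0.000964). *Acaa1b*, a thiolase, fell by 0.58 with siRNA1 (adjusted p = 0.00173).

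*Hsd17b11* is found on lipid droplets. Its brighter probe stood at 86.7%, 111%, 101%, and 102% on the control arrays, at 89.6%, 106%, 88.4%, and 111% on the siRNA1 arrays, and at 97.5%, 121%, and 122% on the siRNA2 arrays. Its second probe ranged from 89.5% to 108% over the control arrays, from 102% to 117% over the siRNA1 arrays, and from 95.3% to 110% over the siRNA2 arrays. The groups overlapped on both probes. The log2 differences of *Hsd17b11* were -0.028 (95% confidence interval -0.28 to 0.23) and 0.12 (-0.082 to 0.32) with siRNA1, and 0.18 (-0.10 to 0.45) and 0.056 (-0.16 to 0.27) with siRNA2, none past the threshold. Of 17 lipid droplet genes, 16 were tested, with 4 lower and 3 higher with siRNA1 (median log2 difference 0.041) and 6 lower and 1 higher with siRNA2 (median -0.073). The shares over all tested probes were 15.2% lower and 11.8% higher with siRNA1, and 10.7% lower and 7.70% higher with siRNA2. *Cidea*, a protein of droplet fusion, fell by 1.08 with siRNA1 and fell by 1.73 with siRNA2 (adjusted p = 0.00025 and 3e-05), *Dgat2*, which makes triglyceride, fell by 0.78 and fell by 1.54 (adjusted p = 0.000136 and 3.91e-06), and *Mgll*, which splits monoglyceride, rose by 0.34 and 0.33 (adjusted p = 0.0212 and 0.0483). With normexp background correction, *Cidea* and *Mgll* with siRNA1 turned to 0.11 and -0.020.

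**Figure D4:**
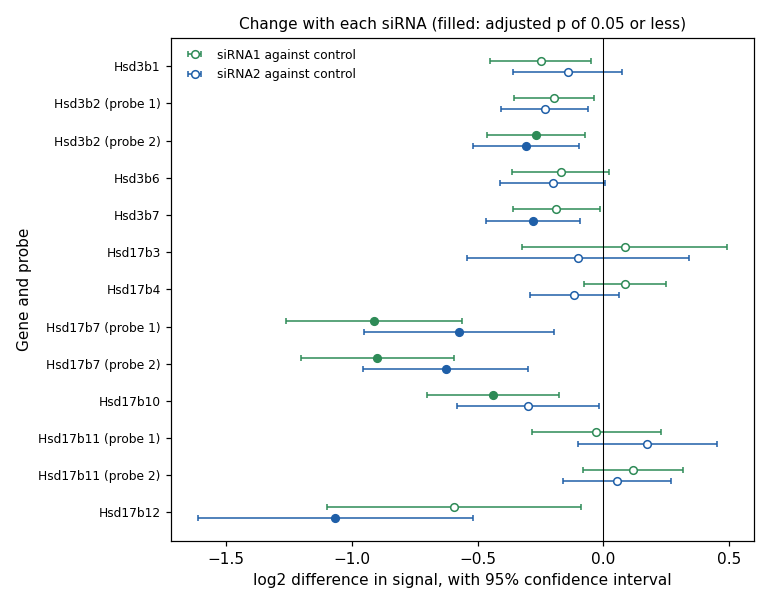
Log2 difference of each siRNA from control (horizontal axis) with its 95% confidence interval, for the 13 tested probes (vertical axis); filled symbols have an adjusted p of 0.05 or less. The siRNA1 and siRNA2 points of *Hsd17b7* lie at -0.91 and -0.57 for probe 1 and at -0.90 and -0.63 for probe 2, and that of *Hsd17b12* with siRNA2 at -1.07. With normexp background correction, the second *Hsd3b2* probe turned above 0 with both siRNAs.

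Between the siRNA groups, 0 of the 13 probes passed in limma, beside 23.5% of all tested probes. At an unadjusted p under 0.05 there was 1 in limma (*Hsd17b4*, with a two-sided exact permutation p of 0.0571), beside 35.2% of all tested probes. The log2 differences, siRNA1 minus siRNA2, ranged from -0.34 (*Hsd17b7*, brighter probe) to 0.47 (*Hsd17b12*). Without siRNA2 array 1, the difference of the brighter *Hsd17b7* probe was -0.53 and passed (adjusted p = 0.0413).

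Over the 11 arrays, the tested genes whose log2 level most resembled that of *Hsd3b1* were *Upf1* (Pearson r = 0.976), *Josd2* (0.976), *Bri3bp* (0.973), *Babam2* (0.972), and *Zfp523* (0.970). These are correlations chosen as the highest of all tested probes with a gene name, over arrays that share groups, slides, and scaling.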

How the data were processed

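Total RNA of 11 samples of MLTCs was hybridized by the authors to 1-color Agilent arrays, each with 45018 spots. Per the file headers, the deposited signal intensity of each spot was made with Agilent Feature Extraction (version 9.5.1.1), which subtracted background, without scaling between arrays; the same software gave the spot and local background medians and the background and saturation marks. The authors' table of group averages held none of these genes and was not used. The signals were converted to log2, outlier-marked spots were left out, and each array's 75th percentile was subtracted. Probes were named by accession through RefSeq (24375 probes). Testing required a probe to be marked well above background throughout 1 or more groups (24250 probes).

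A single model of the 3 groups was fitted over all 11 arrays in limma (lmFit, eBayes; version 3.58.1, R version 4.3.3), with Benjamini-Hochberg adjustment over all tested probes at 0.05. Exact permutation tests (scipy version 1.17.1) are two-sided with the smaller tail doubled. Named were all probes of the 10 genes, list genes past the threshold with both siRNAs, the largest change per list and siRNA, and the 5 genes most like *Hsd3b1*; others are marked, and 1 gene that this rule names is not reported here. Lists use the brightest tested probe of a gene. The 10 genes, the lists, and the motifs were chosen with earlier results of these data known, so that no list is independent evidence. In simulated data of this design, 50 of 24250 probes were changed at each size. Of those changed by 0.5 (log2), 26% (siRNA1) and 18% (siRNA2) passed, and of those changed by 1, 88% and 90%. Far fewer probes were changed there than passed in the real data. The adjusted p depends on that share, so these rates may not hold for these arrays. Alternatives were normexp background correction of spot medians by local background medians (offset 50), the same with extreme local backgrounds replaced and no scaling (both chosen after the data were seen), quantile and median scaling, 2 other filters, outlier-marked spots kept, slide and replicate blocks, separate fits, the methods' t-test, eBayes with trend and robust options, a 2-fold limit, the mean over probes, and leaving out each array. The number of arrays limits the precision.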

Additional observations from a re-analysis of the deposited data

Results flagged for a closer look

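In 5 of 30 groups of 4 arrays (14 probes of the 10 genes and *Mamld1*, in non-targeted and siRNA1-transfected MLTCs), 1 array stood far from the other 3, measured by its gap to the nearest array over the range of the group. In independent groups of normal values, chance alone gives about 1 in 20 such groups. These probes were read on the same arrays, so the groups are not independent and the count cannot be judged by that rate. For *Hsd17b12*, siRNA1 array 1 stood at 93.4% of the control mean, above the other siRNA1 arrays at 58.4% to 60.2%. For the untested, dimmest *Hsd3b2* probe, control array 1 stood at 363%, above the other control arrays at 53.3% to 72.0%. For *Hsd3b6*, control array 2 stood at 84.8%, below the other control arrays at 103% to 107%. For *Hsd3b7*, control array 4 stood at 110%, above the other control arrays at 96.3% to 97.4%. For *Mamld1*, siRNA1 array 2 stood at 77.0%, above the other siRNA1 arrays at 44.1% to 48.1%.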

How the results depend on the processing

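Over 936 recomputed log2 differences of the 13 probes, 817 kept their direction and side of the threshold, 72 lost and 23 gained the call, and 24 reversed. Normexp background correction moved the median of all tested probes to 0.22 with siRNA1 and 0.17 with siRNA2, against -0.048 and -0.0082, and left 381 and 123 calls of 6553 and 4472, with 29.1% and 26.0% of them higher against 43.6% and 41.7%. With its extreme local backgrounds replaced (at most 16 an array), there were 7362 calls with siRNA1 and 3749 with siRNA2. The medians were then -0.11 and -0.026, and 32.8% and 41.2% of the calls were higher. The methods' t-test, adjusted, left 2854 siRNA2 calls. The causes were not tested.

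Of the 13 probes, the siRNA1 count of 4 became 1 with normexp, 7 with the unadjusted t-test of the methods, and 0 with a 2-fold limit, and 2 to 5 without each array. The siRNA2 count of 5 became 2 with quantile normalization, median scaling, no filter on dim probes, or separate fits, 0 with normexp or the adjusted t-test, 1 with a 2-fold limit, and 1 to 4 without each array. Between the siRNAs, the count of 0 became 1 with the slide block, 2 with the replicate block, 1 with the unadjusted t-test, and 0 to 1 without each array.

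Same-numbered arrays of different groups correlated in their deviations with a median r of 0.30 over 10 pairs (-0.18 to 0.53). Over 30 pairs of different numbers it was -0.10, and 13 of 20 best correlations with another group were with the same number. Arrays of the same slide had a median r of 0.30 over 13 pairs, against -0.13 over 27 pairs of different slides. Some same-numbered arrays also shared a slide, so shared number and shared slide were not separated. The labels do not state a pairing and the methods name none, so the main fit had no block. With the slide block, 8670 and 6172 probes passed with siRNA1 and siRNA2. With the replicate block, 8397 and 5847 probes passed with siRNA1 and siRNA2, *Hsd17b12* passed with siRNA1 (-0.59, adjusted p = 0.000425) and between the siRNAs (0.53, 0.00131), *Hsd17b7* between the siRNAs (brighter probe, -0.38, 0.0188), the brightest *Hsd3b2* probe with siRNA2 (-0.26, 0.0454), and *Hsd3b7* with siRNA2 no longer (-0.25, 0.0581). The block changed no other call of these genes.

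For *Mamld1*, normexp gave 0.65 with siRNA1 and 0.44 with siRNA2. With extreme local backgrounds replaced, the siRNA1 call held (-0.40, adjusted p = 0.00637). The siRNA2 call was lost with no filter on dim probes or the adjusted t-test (-0.77), with normexp and extreme local backgrounds replaced (-0.19), and without any 1 of 4 arrays (-0.84 to -0.58; -0.88 to -0.58 over all 11 arrays left out in turn). Without scaling between arrays, a comparison with no test that was chosen after the data were seen, the second *Hsd3b2* probe with siRNA1 reversed to 0.069.

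Reversals with normexp were -0.090 (*Hsd17b11*, brighter probe, siRNA2), -0.052 and -0.064 (*Hsd17b11*, second probe, siRNA1 and siRNA2), 0.61 (*Hsd17b3*, siRNA2), -0.21 (*Hsd17b4*, siRNA1), 0.40 and 0.23 (*Hsd3b2*, second probe, siRNA1 and siRNA2), and, between the siRNAs, -0.067 (*Hsd3b2*, brightest probe), -0.079 (*Hsd3b6*), and -0.036 (*Hsd3b7*). With extreme local backgrounds replaced they were -0.16 (*Hsd17b3*, siRNA1) and, between the siRNAs, -0.13 (*Hsd17b3*) and -0.082 (*Hsd3b2*, second probe). The brighter *Hsd17b11* probe with siRNA1 became 0.075 with quantile normalization, 0.015 with median scaling, and -0.096 to 0.024 without each array, and *Hsd3b1* between the siRNAs became 0.0093 with quantile normalization. Without each array, *Hsd17b3* lay between -0.051 and 0.25 (siRNA1) or -0.26 and 0.067 (siRNA2), and, between the siRNAs, the second *Hsd17b11* probe from -0.0016 to 0.10, the brightest *Hsd3b2* probe from -0.0055 to 0.062, and the second from -0.0056 to 0.087. Among the named list genes, 953 of their recomputed values kept direction and side, 117 lost the call, and 6 reversed, all with normexp: *Elovl3* (0.43 with siRNA1, 0.38 with siRNA2), *Hacd4* (0.57 and 0.46), *Cidea* (0.11 with siRNA1), and *Mgll* (-0.020 with siRNA1).

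With normexp and siRNA1, the list medians became 0.57 (other hydroxysteroid dehydrogenases), -0.45 (steroid pathway), -0.70 (cholesterol synthesis), -0.37 (peroxisomal oxidation), -0.48 (elongation), -0.14 (RNase P and isoleucine), 0.27 (bile acids), and -0.11 (lipid droplets). With siRNA2 they became 0.24, -0.23, -0.64, -0.22, -0.32, -0.16 (RNase P and isoleucine), and -0.21 (lipid droplets), in the same order. With extreme local backgrounds replaced, the other hydroxysteroid dehydrogenases became -0.13, peroxisomal oxidation -0.087 and -0.039, and lipid droplets -0.066. Quantile normalization gave 0.020 for the other hydroxysteroid dehydrogenases and -0.25 for cholesterol synthesis (siRNA1), and -0.047 and -0.038 for peroxisomal oxidation. Peroxisomal oxidation with siRNA1 became -0.083 with median scaling and -0.096 with the slide block, and with siRNA2 -0.058 with the replicate block, and the other hydroxysteroid dehydrogenases with siRNA1 0.015 with the slide block.

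Without each array, the list counts of lower and of higher genes changed by at most 1 gene, apart from the siRNA2 counts of lower genes for cholesterol synthesis (4 to 7) and elongation (2 to 5). The medians with siRNA1 ranged from -0.14 to 0.031 (other hydroxysteroid dehydrogenases), -0.17 to -0.043 (steroid pathway), -0.15 to -0.087 (peroxisomal oxidation), -0.34 to -0.23 (elongation), -0.010 to 0.069 (RNase P and isoleucine), and -0.029 to 0.072 (lipid droplets, below 0 without control array 2). With siRNA2 they ranged from -0.057 to 0.10 (other hydroxysteroid dehydrogenases), -0.12 to 0.018 (steroid pathway), -0.44 to -0.35 (cholesterol synthesis), -0.10 to -0.032 (peroxisomal oxidation), -0.30 to -0.18 (elongation), -0.11 to -0.0020 (RNase P and isoleucine), and -0.20 to 0.013 (lipid droplets).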

Other observations

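Array 1 was the highest of its group in all 3 groups for 11.4% of the 24250 tested probes (2775), and the lowest in all 3 groups for 11.9% (2880). Among the hydroxysteroid dehydrogenases, it was the highest for *Hsd17b12*, *Hsd17b3*, the second *Hsd17b7* probe, and the second *Hsd17b11* probe, and the lowest for *Hsd17b4*, the brighter *Hsd17b7* probe, and the second *Hsd3b2* probe. The 3 arrays numbered 1 share slide 1 with control array 2. Their part in the differences between groups was not tested beyond the slide block, the replicate block, and the values without each array.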
